A study of Mus musculus with 12 samples.

Results

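The effect of environmental enrichment (EE) on uninjured dorsal root ganglia (DRG) was read from 6 of the 12 RNAseq libraries of the series, which compared EE with standard housing (SH) before sham surgery or sciatic nerve axotomy (SNA, a cut of the sciatic nerve). The members were all libraries that the labels gave as SH Sham (3 libraries) or EE Sham (3 libraries). All came from C57BL/6 mice of 5 to 8 weeks that carried no transgene, were kept for 10 days in SH or EE, underwent sham surgery, and had the L4 to L6 ganglia whose axons run in the sciatic nerve taken 24 h afterwards. Each library held the ganglia of 2 pooled mice, so that a group stood for 6 mice and no value belonged to a single animal. The remaining libraries, SH SNA and EE + SNA with 3 each, came from the same design with SNA in place of sham surgery, and served here as a second comparison of EE with SH that shared no library with the first. EE cages differed from SH cages by more space, more mice, more nesting material, a running wheel, objects to explore and added food treats. Social contact, exercise and diet therefore cannot be told apart. The study described EE Sham as an earlier dataset. Any difference between sequencing runs and the effect of EE therefore cannot be told apart, as the labels name no run.

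DRG hold the cell bodies of sensory neurons of the trunk and limbs, wrapped by satellite glia and accompanied by Schwann cells, macrophages, vessels and connective tissue. They lie outside the blood-nerve barrier and next to the vertebral marrow and muscle, and sympathetic ganglia lie close to them. EE combines social, sensory and motor stimulation and is known to alter gene expression and growth of neurons, glucocorticoid release and energy metabolism. In RNA of whole ganglia, fewer cells of a type and less RNA per cell cannot be told apart.

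SH Sham libraries held 13782383 to 17036481 reads on genes, and EE Sham libraries 11343579 to 12963937, so that every EE Sham library was shallower than every SH Sham library. Levels are given as read counts per 1000000 reads on tested genes (CPM), with library totals scaled by edgeR's TMM factors. Sham and SNA libraries were scaled separately. For summed reads of genes that the filter on low counts left out, CPM is per 1000000 reads on genes without scaling. A gene counted as called at an unadjusted P-value under 0.05 in edgeR's quasi-likelihood test. The study used this threshold with edgeR's likelihood ratio test. Benjamini-Hochberg adjusted values are given beside it where they bear on a call. Apart from Zbtb16, every gene had an adjusted value of 0.394 or more without the pairing of replicates, so that each other gene named as higher or lower rests on the unadjusted threshold. Log2 fold changes are of EE over SH and are given with a standard error (SE) derived from the test. It is the absolute log2 fold change divided by the square root of the test's F statistic. The summed level of 12 sensory neuron markers was 9508, 9522 and 9624 CPM in SH Sham 1 to 3 and 9252, 9156 and 9023 CPM in EE Sham 1 to 3, so that the labelled tissue was seen in every library. Of 8 markers of central nervous system glia, 3 passed the filter on low counts, and they summed to at most 22.7 CPM in a library. The first principal component took 37.1% of the variance and did not divide the housing groups, with EE Sham 1 and SH Sham 1 at one end and EE Sham 2 at the other.

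Few transcripts differed strongly between EE Sham and SH Sham. The transcription factor Zbtb16 rose and was the only gene past the adjusted threshold, and 5 genes of cholesterol synthesis and the cholesterol carrier Stard4 rose by small amounts. The Notch target Hes5, the ceramidase Acer2 and the immediate early gene Egr3 fell. Hes5 and Egr3 rested on few reads, at no more than 3.12 CPM in any sham library. Of 20 immediate early genes tested, 1 was higher and 1, Egr3, was lower. Of 16238 genes tested, 483 were called (2.97%), 227 higher (1.40%) and 256 lower (1.58%) in EE Sham, and 1 gene passed the adjusted threshold (0.00616%). If no gene differed, a threshold of 0.05 would be expected to call a fraction of 0.05 of all genes, more than were called here. An unadjusted call alone therefore does not set a gene apart. The median absolute log2 fold change was 0.0684 over all genes and 0.351 over the called genes, and of 439 called genes that averaged 1 CPM or more, 14 differed by at least 1 on the log2 scale. The 3 values of one group did not overlap those of the other for 1217 genes (7.49%; 3.22% with EE Sham higher and 4.27% with EE Sham lower), of which 351 were also called. Where replicates of the same number were treated as pairs, 847 genes were called (5.22%), 455 of them higher (2.80%), and 29 (0.179%) passed the adjusted threshold, 20 of them higher (0.123%). No label states such a pairing, and SH Sham 3 correlated more with EE Sham 2 (0.194) than with EE Sham 3 (0.111). Values with paired replicates, here and for single genes below, hold only under this assumed pairing. DESeq2 called 207 genes, and edgeR called 852 without EE Sham 2. With edgeR's likelihood ratio test, the kind of test that the study used, 450 genes were called. The division into higher and lower genes was 185 to 341 with limma on log2(FPKM + 1).

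Zbtb16 (PLZF), which lies at chr9:48654297-48836222, minus strand of GRCm38, encodes a zinc finger transcription repressor that is induced by glucocorticoids in many tissues. Its level was 3.001, 5.13 and 5.83 CPM in SH Sham 1 to 3 and 12.2, 13.95 and 11.2 CPM in EE Sham 1 to 3. The groups did not overlap, and all 3 EE Sham libraries lay far above all 3 SH Sham libraries. The difference was a log2 fold change of 1.43 (SE 0.19, adjusted P = 0.0452 in edgeR's quasi-likelihood test). Zbtb16 passed the unadjusted threshold without each single library and under all 10 other settings, but the adjusted value ranged from 0.0276 to 0.123 as single libraries were left out, staying under 0.05 only without SH Sham 3, and from 1.95e-15 to 0.757 under the other settings. After SNA the level was 11.9, 8.502 and 15.3 CPM in SH SNA and 9.13, 10.97 and 8.19 CPM in EE + SNA. These values overlapped between SH and EE, and none of the 6 fell into the range of SH Sham, although sham and SNA libraries were scaled separately. The housing difference after SNA was −0.32 on the log2 scale (SE 0.19, not called), and the difference between the housing effects was −1.75 (adjusted P = 0.458 in edgeR's interaction test).

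**Figure D1:**
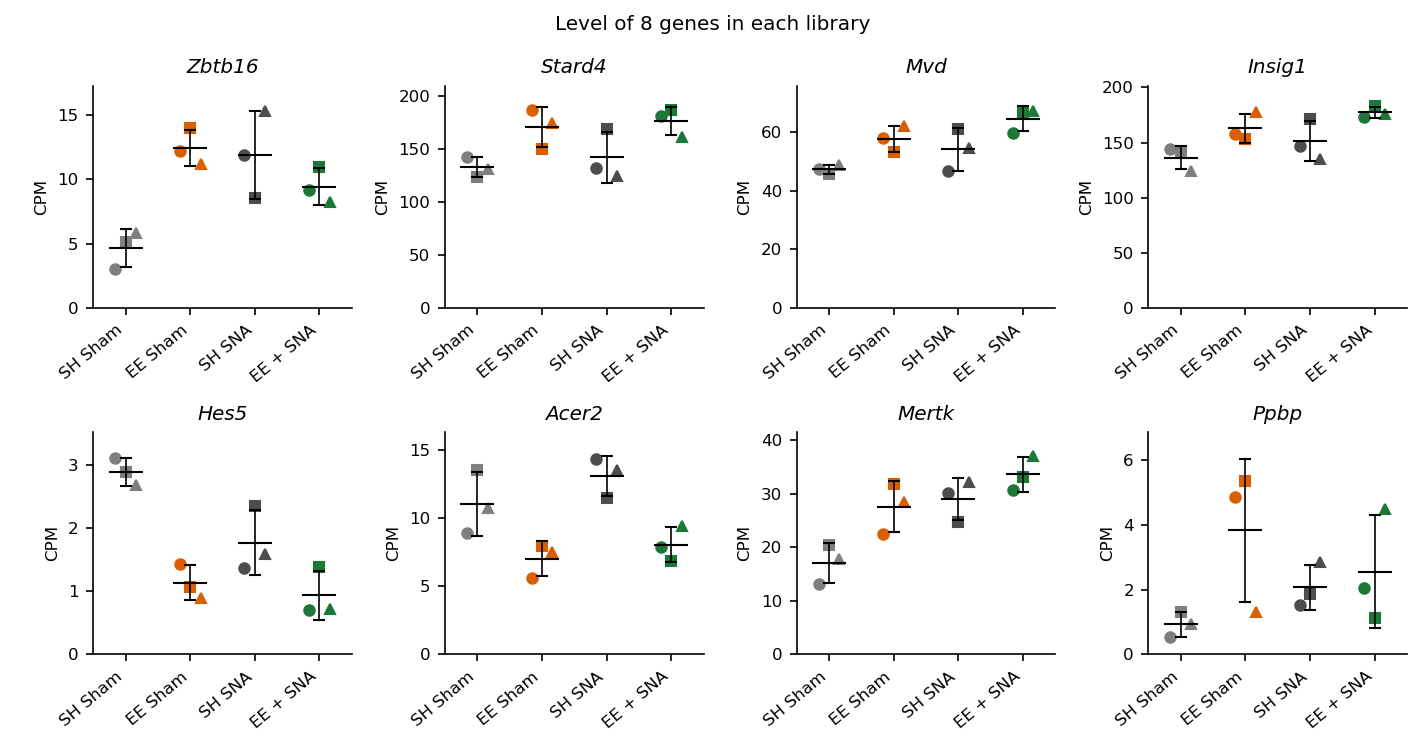
Level in CPM (vertical axis, from 0) of 8 genes in each of the 12 libraries, by group (horizontal axis), with circles, squares and triangles for replicates 1, 2 and 3 and black lines for the mean ± SD of 3 libraries. Zbtb16 lies at 3.001, 5.13 and 5.83 CPM in SH Sham and at 8.19 CPM or above in every other library, whereas the means of Stard4, Mvd and Insig1 lie higher and those of Hes5 and Acer2 lower in EE than in SH in both pairs of groups. Sham and SNA libraries were scaled separately.

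Cells make cholesterol from acetyl-CoA through the mevalonate pathway, and sterol-sensing proteins adjust the transcription of its enzymes. Of 20 genes in the list of cholesterol synthesis, all of which were tested, 5 were higher in EE Sham and 0 lower, against 1.40% higher and 1.58% lower of all genes. Of the 20, 19 had a positive log2 fold change. Their median log2 fold change was 0.116, beside 0.00274 over all genes. Mvd, the mevalonate diphosphate decarboxylase, stood at 47.5, 45.8 and 48.7 CPM in SH Sham 1 to 3 and 57.9, 53.1 and 62.1 CPM in EE Sham 1 to 3. Every EE Sham library was higher than every SH Sham library (log2 fold change 0.28, SE 0.08). Insig1, which holds the sterol sensor complex in the endoplasmic reticulum, stood at 144, 140.2 and 124 CPM in SH Sham 1 to 3 and 158, 153 and 178 CPM in EE Sham 1 to 3 (log2 fold change 0.26, SE 0.08). Its groups did not overlap either. Lss, which closes the ring system of lanosterol, stood at 55.9, 42.3 and 45.96 CPM in SH Sham 1 to 3 and 60.2, 54.4 and 57.1 CPM in EE Sham 1 to 3 and overlapped between groups at SH Sham 1 (log2 fold change 0.25, SE 0.09). The isomerase Idi1 was called as well (log2 fold change 0.20, SE 0.09).

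Stard4, a carrier of cholesterol between membranes that was not on the list, stood at 142, 124 and 131 CPM in SH Sham 1 to 3 and 187, 149.9 and 174 CPM in EE Sham 1 to 3. No EE Sham library fell to the level of an SH Sham library (log2 fold change 0.36, SE 0.09), and with paired replicates the adjusted P-value of edgeR was 0.00210. Srebf2, the transcription factor that drives this pathway, was the only member of the list with a negative value (−0.04, SE 0.07). Squalene epoxidase (Sqle, 0.07, SE 0.07) and Hmgcs1 (0.09, SE 0.08) did not pass the test. The count of 5 became 9 with paired replicates, 3 without SH Sham 2 or without SH Sham 3, 10 without SH Sham 1 and 11 without EE Sham 2, with 0 lower each time, and the median ranged from 0.106 to 0.168 over these omissions. The call of Lss was lost without SH Sham 2, SH Sham 3 or EE Sham 1. After SNA, 9 of the 20 genes were higher in EE and 0 lower, against 2.16% higher and 1.94% lower of all genes there, with a median of 0.148. Mvd, Insig1, Lss and Idi1 were called in both comparisons, as was Stard4, whose level was 132, 169 and 125 CPM in SH SNA and 181, 186 and 161 CPM in EE + SNA.

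**Figure D2:**
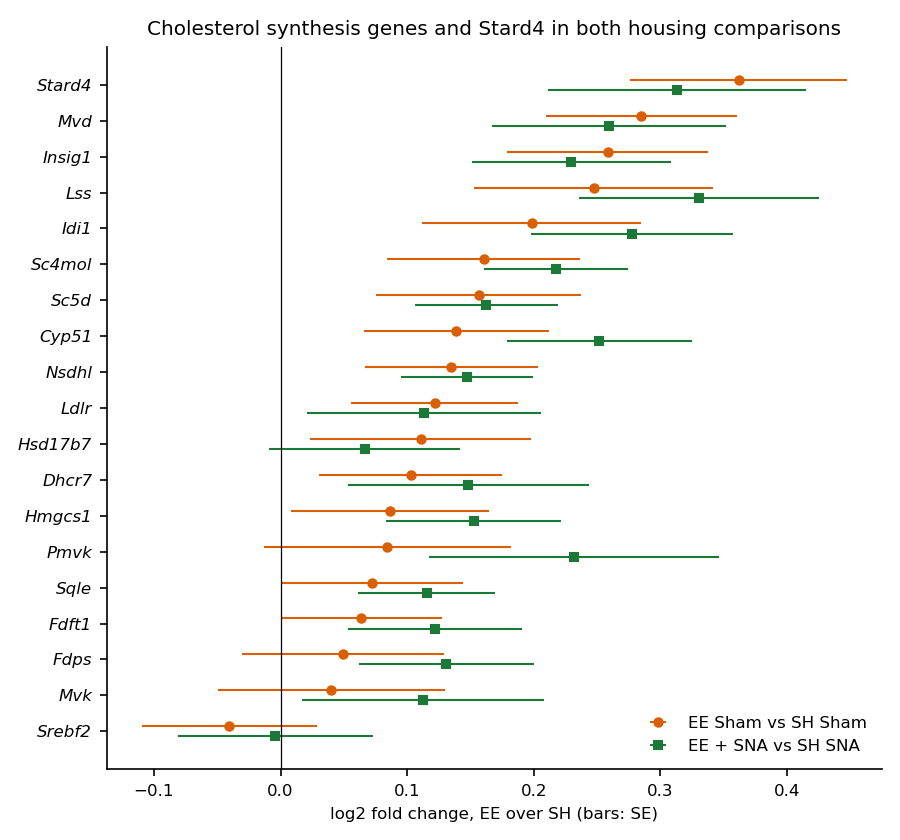
Log2 fold change of EE over SH (horizontal axis) with its SE for 18 genes of cholesterol synthesis and Stard4 (vertical axis), without injury (circles) and after SNA (squares). All but Srebf2 lie right of 0 in both comparisons, and Stard4 has the largest value without injury, 0.36.

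The 250 bases before the transcription start of Mvd, Insig1 and Lss are shown 5′ to 3′ on the gene's strand. They come from RefSeq promoters of GRCm38.p6, with CCAAT boxes (CCAAT, or ATTGG on the other strand) in capitals. The Mvd stretch is chr8:122443423-122443672 on the minus strand, that of Insig1 chr5:28071162-28071411 on the plus strand and that of Lss chr10:76531355-76531604 on the plus strand.
Mvd: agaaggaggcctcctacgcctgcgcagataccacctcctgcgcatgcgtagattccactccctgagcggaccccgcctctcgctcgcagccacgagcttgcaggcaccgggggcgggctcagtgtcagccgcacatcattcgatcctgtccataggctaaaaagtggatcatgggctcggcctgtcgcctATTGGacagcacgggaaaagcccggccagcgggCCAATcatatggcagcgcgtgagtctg
Insig1: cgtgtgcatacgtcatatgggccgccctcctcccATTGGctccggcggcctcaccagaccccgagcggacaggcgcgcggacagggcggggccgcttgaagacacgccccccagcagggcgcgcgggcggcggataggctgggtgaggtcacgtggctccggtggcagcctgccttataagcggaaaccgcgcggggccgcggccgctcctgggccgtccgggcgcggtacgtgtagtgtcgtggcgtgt
Lss: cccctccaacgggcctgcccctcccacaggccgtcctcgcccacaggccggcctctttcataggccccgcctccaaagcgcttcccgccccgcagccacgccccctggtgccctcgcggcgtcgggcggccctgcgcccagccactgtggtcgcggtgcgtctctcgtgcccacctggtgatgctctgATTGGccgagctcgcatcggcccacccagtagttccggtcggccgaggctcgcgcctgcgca
The CCAAT box binds NF-Y, which is known to act beside sterol-responsive factors. Of the 20 genes, 14 matched a promoter by symbol (Sc4mol under its present symbol Msmo1), and 13 of these held a CCAAT box on either strand within 250 bases, whereas 33.8% of 32851 promoters did. The Mvd stretch held 2 boxes and those of Insig1 and Lss 1 each. The letters TCACNCCAC, searched on both strands as a core of the sterol response element, stood in 1 of the 14, that of Hmgcs1, and in 1.05% of all promoters. The stretches of Mvd, Insig1 and Lss held no such match. A match is a string of letters, and no binding was measured.

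Glucocorticoids, the hormones of the adrenal cortex, act through a receptor that induces a set of genes in most cell types. Of 20 glucocorticoid-responsive genes, 3 were higher in EE Sham and 2 lower, against 1.40% higher and 1.58% lower of all genes. Over the list the median was 0.134 on the log2 scale. The 3 include Zbtb16, the only gene past the adjusted threshold, and Plin4, which is also on the adipose list. As lists were chosen with earlier results of these data known, the count beside all genes is not independent of Zbtb16. Whether the set responded as a whole was not tested. Beside Zbtb16, the lipid droplet protein Plin4 rose, at 4.295, 14.8 and 13.1 CPM in SH Sham 1 to 3 and 11.9, 38.9 and 19.4 CPM in EE Sham 1 to 3 (log2 fold change 1.16, SE 0.38). EE Sham 2 was the highest library and SH Sham 2 and 3 lay above EE Sham 1, so that the groups overlapped. Fkbp5, a co-chaperone that dampens the glucocorticoid receptor, stood at 55.1, 73.6 and 78.9 CPM in SH Sham 1 to 3 and 73.4, 104 and 86.01 CPM in EE Sham 1 to 3 (log2 fold change 0.35, SE 0.13). Its groups overlapped, as SH Sham 2 and 3 lay above EE Sham 1. The 2 lower members were Ddit4, an inhibitor of mTORC1 (−0.38, SE 0.15), and the clock gene Per1 (−0.21, SE 0.09). Tsc22d3 (−0.12, SE 0.11), Sgk1 (0.01, SE 0.16) and Klf9 (0.00, SE 0.07), which respond to the same hormones, did not pass the test. With paired replicates 9 members were higher and 3 lower, against 5.22% of all genes called there, and Zbtb16, Plin4, Fkbp5 and Ddit4 passed the adjusted threshold there (Plin4 at 1.08e-08, Fkbp5 at 0.0137 and Ddit4 at 0.00832 in edgeR). The call of Plin4 was lost without EE Sham 2 and that of Fkbp5 without SH Sham 1 or EE Sham 2. The call of Ddit4 was lost without SH Sham 2 or EE Sham 1 and that of Per1 without SH Sham 2, SH Sham 3, EE Sham 1 or EE Sham 3. The list's median was −0.0791 without EE Sham 2. After SNA, Plin4 was again higher in EE, at 32.5, 22.6 and 30.4 CPM in SH SNA and 38.7, 40.2 and 36.6 CPM in EE + SNA (log2 fold change 0.43, SE 0.12), whereas the values of Fkbp5 (−0.10, SE 0.07) and Ddit4 (0.10, SE 0.06) did not pass.

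Of 19 circadian clock genes, 2 were higher and 2 lower, against 1.40% higher and 1.58% lower of all genes. Bhlhe40, a repressor of clock transcription, stood at 26.9, 27.2 and 27.5 CPM in SH Sham 1 to 3 and 33.5, 30.2 and 30.9 CPM in EE Sham 1 to 3 without overlap (log2 fold change 0.21, SE 0.08). Npas2, a partner of Bmal1, was higher as well (0.71, SE 0.27). Dbp, an output factor of the clock (−0.25, SE 0.11), and Per1 were lower. The list's median was 0.0308. The call of Bhlhe40 was lost without EE Sham 1, that of Npas2 without SH Sham 3 or EE Sham 3 and that of Dbp without SH Sham 1, SH Sham 2, EE Sham 2 or EE Sham 3. The hour of day at collection is not given in the sources used here.

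Hes5, a basic helix-loop-helix repressor induced by Notch, had the largest decrease among called genes that averaged 1 CPM or more and did not overlap between groups. It stood at 3.12, 2.89 and 2.68 CPM in SH Sham 1 to 3 and 1.44, 1.07 and 0.898 CPM in EE Sham 1 to 3, so that it rested on few reads. The difference (log2 fold change −1.36, SE 0.25) reached an adjusted P-value of 0.00426 with paired replicates. Hes5 lies at chr4:154960923-154962371, plus strand and shares 433 of its 1363 exonic bases with Gm20421 on the opposite strand, whose reads cannot be told apart since no source used here states that strand was kept. Gm20421 was itself called lower in EE, without injury (log2 fold change −0.87, SE 0.35) and after SNA (−1.05, SE 0.40). After SNA Hes5 was at 1.37, 2.36 and 1.59 CPM in SH SNA and 0.709, 1.39 and 0.723 CPM in EE + SNA, lower in EE by −0.81 on the log2 scale (SE 0.34, called). Acer2, an alkaline ceramidase that releases sphingosine, stood at 8.88, 13.5 and 10.7 CPM in SH Sham 1 to 3 and 5.57, 7.97 and 7.51 CPM in EE Sham 1 to 3 (log2 fold change −0.64, SE 0.17). Its groups did not overlap, and after SNA it was again lower in EE, at 14.3, 11.4 and 13.5 CPM in SH SNA and 7.89, 6.85 and 9.39 CPM in EE + SNA (log2 fold change −0.72, SE 0.14). Cxx1a, a gene derived from a retrotransposon that is named Rtl8a in GENCODE, stood at 45.6, 46.1 and 48.1 CPM in SH Sham 1 to 3 and 35.8, 36.4 and 31.99 CPM in EE Sham 1 to 3 (log2 fold change −0.42, SE 0.08). All 3 EE Sham libraries lay below all SH Sham libraries.

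Of the other lower genes chosen by size, Egr3, an activity-induced zinc finger factor, stood at 1.94, 1.01 and 1.41 CPM in SH Sham 1 to 3 and 0.809, 0.613 and 0.571 CPM in EE Sham 1 to 3 (log2 fold change −1.15, SE 0.36). Gab3 (an adaptor of growth factor signalling, −1.02, SE 0.31), Gpr65 (a proton-sensing receptor, −0.97, SE 0.41), Ndufa4l2 (a mitochondrial protein related to a cytochrome oxidase subunit, −0.95, SE 0.30), Foxo6 (a forkhead factor, −0.81, SE 0.27) and Klk8 (a secreted serine protease, −0.87, SE 0.34) were also lower. So were BC022960 (−0.91, SE 0.34), AK077163 (−0.91, SE 0.29) and Adam1a (−0.87, SE 0.27). None of these 8 exceeded 2.75 CPM in any sham library, and Egr3 did not exceed 1.94 CPM, so that each rested on few reads. Adam1a shares 4783 of 7508 exonic bases with neighbouring genes. Pmp2, a fatty acid carrier of peripheral myelin, stood at 58.5, 32.2 and 36.6 CPM in SH Sham 1 to 3 and 32.2, 29.4 and 27.7 CPM in EE Sham 1 to 3. SH Sham 1 lay far above the other libraries, and EE Sham 1 lay just below SH Sham 2 (log2 fold change −0.52, SE 0.17). Its exons overlap Gm37389 on the same strand over 1224 of 1408 bases. The call of Gpr65 was lost without SH Sham 1 or EE Sham 1 and that of BC022960 without SH Sham 1. The call of Klk8 was lost without SH Sham 1, EE Sham 1 or EE Sham 2 and that of Foxo6 without SH Sham 3.

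The higher genes chosen by size, Zbtb16 among them, included transcripts of blood cells. Ppbp, a chemokine stored in platelets, stood at 0.530, 1.3 and 0.938 CPM in SH Sham 1 to 3 and 4.85, 5.37 and 1.31 CPM in EE Sham 1 to 3. EE Sham 1 and 2 stood well above the rest, and EE Sham 3 hardly above SH Sham 2 (log2 fold change 2.08, SE 0.44). Alox12, a lipoxygenase of platelets (0.98, SE 0.29), Prtn3, a protease of neutrophil granules (0.91, SE 0.28), and Gp49a, a receptor of myeloid cells (0.81, SE 0.28), were higher as well. So were Rnaset2a, which has a near-identical copy (0.88, SE 0.39), and DQ695529 (0.80, SE 0.26). Atoh8, a basic helix-loop-helix factor (1.09, SE 0.35), and Slc25a34, a mitochondrial carrier (0.96, SE 0.31), were higher too. Mertk, a receptor by which macrophages and glia take up dying cells, stood at 13.1, 20.5 and 17.8 CPM in SH Sham 1 to 3 and 22.5, 31.9 and 28.5 CPM in EE Sham 1 to 3 with no overlap (log2 fold change 0.70, SE 0.15) and reached an adjusted P-value of 1.21e-06 with paired replicates in edgeR. After SNA its housing difference was 0.21 (SE 0.11, not called). The call of Slc25a34 was lost without EE Sham 2, that of Gp49a without SH Sham 3 and that of Rnaset2a without SH Sham 1, SH Sham 3 or EE Sham 2.

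The summed levels of red blood cell and of neutrophil markers overlapped between the groups. In the blood cell lists below, calls stand beside 1.40% of all genes called higher and 1.58% lower. All 7 red blood cell genes had positive values, and 2 were called. The red cell anion exchanger Slc4a1 stood at 5.24, 5.42 and 2.01 CPM in SH Sham 1 to 3 and 9.34, 11.1 and 4.32 CPM in EE Sham 1 to 3 (log2 fold change 0.97, SE 0.33). The globin Hba-a1 stood at 54.01, 85.7 and 96.3 CPM in SH Sham 1 to 3 and 147, 166 and 59.2 CPM in EE Sham 1 to 3 (log2 fold change 0.66, SE 0.27). Its reads cannot be divided surely from those of its copy Hba-a2. The summed level of the list was 233, 417 and 434 CPM in SH Sham 1 to 3 and 545, 721 and 275 CPM in EE Sham 1 to 3, high in EE Sham 1 and 2 and low in EE Sham 3. All 9 neutrophil genes were positive, and Mpo, the myeloperoxidase of granules, was called at 1.88, 1.95 and 0.938 CPM in SH Sham 1 to 3 and 3.95, 5.52 and 1.63 CPM in EE Sham 1 to 3 (log2 fold change 1.22, SE 0.37). Their sum was 129, 224 and 83.1 CPM in SH Sham 1 to 3 and 207, 261 and 111 CPM in EE Sham 1 to 3. SH Sham 2 lay above EE Sham 1, and SH Sham 1 and 2 lay above EE Sham 3. With paired replicates 6 red cell and 9 neutrophil genes were called, all higher, against 2.80% of all genes called higher there. Among them were S100a8 and S100a9, which bind calcium, at adjusted P-values of 0.000190 and 0.00285 in edgeR under the assumed pairing. The counts of red cell and neutrophil genes called were 0 and 1 without EE Sham 2, and 7 and 6 without EE Sham 3. Of 5 lymphocyte genes tested, the B cell receptor chain Cd79b was higher (1.10, SE 0.45). The chemokine receptor Cx3cr1 was the 1 of 12 macrophage genes called, at 2.88, 2.67 and 2.28 CPM in SH Sham 1 to 3 and 3.23, 4.14 and 3.998 CPM in EE Sham 1 to 3 (log2 fold change 0.54, SE 0.19). The macrophage list summed to 93.9 to 102 CPM in SH Sham and 85.4 to 102 CPM in EE Sham. Chi3l3, a lectin of myeloid cells (0.91, SE 0.32), and the proliferation marker Mki67 (0.76, SE 0.29) were higher too. Mmp13, a collagenase of bone, reached 7.28 CPM in EE Sham 2 against 0.988 and 0.245 CPM in EE Sham 1 and 3 and at most 1.16 CPM in SH Sham (log2 fold change 2.51, SE 0.88). The call of Slc4a1 was lost without SH Sham 3 or EE Sham 2, that of Hba-a1 without SH Sham 1, EE Sham 1 or EE Sham 2 and that of Cd79b without SH Sham 1, SH Sham 3 or EE Sham 2. The call of Cx3cr1 was lost without SH Sham 3 or EE Sham 2 and that of Chi3l3 without SH Sham 1, SH Sham 3 or EE Sham 2. The call of Mki67 was lost without SH Sham 3 or EE Sham 1 and that of Mmp13 without SH Sham 1, SH Sham 3 or EE Sham 2. Of 6 platelet genes tested, a list added after values were seen, Ppbp was the 1 called. The part of blood and marrow RNA in the higher genes was not tested.

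Markers of muscle and fat varied more between libraries than between groups. Calls of list members stand beside 2.97% of all genes called. The 15 skeletal muscle genes summed to 7.88, 22.3 and 206 CPM in SH Sham 1 to 3 and 15.5, 267 and 98.1 CPM in EE Sham 1 to 3, a range that spanned both groups. All 15 had positive values, with a median of 0.689, but 0 were called, and with paired replicates 8 were (0 after adjustment). Over all genes 2.80% were called higher with paired replicates. Atp2a1, the calcium pump of fast muscle, stood at 0.588, 2.6 and 22.4 CPM in SH Sham 1 to 3 and 1.98, 41.6 and 10.9 CPM in EE Sham 1 to 3. Skeletal actin, Acta1, stood at 1.18, 2.89 and 30.9 CPM in SH Sham 1 to 3 and 2.16, 37.4 and 13.95 CPM in EE Sham 1 to 3. The median turned to −0.395 without EE Sham 2, and 15 were called without SH Sham 3. After SNA the median was −1.39. Of 7 adipose genes tested, Plin4 was the 1 called, and the list summed to 16.1, 44.8 and 34.97 CPM in SH Sham 1 to 3 and 23.6, 85.6 and 38.3 CPM in EE Sham 1 to 3, highest in EE Sham 2, the library in which Plin4 was highest. After SNA 6 of the 7 adipose genes were higher in EE, against 2.16% of all genes. The part of adipose tissue in the value of Plin4 was not tested. Of 6 cartilage and bone genes tested, the cartilage collagen Col2a1 was higher (0.97, SE 0.40) at 0.361 to 0.898 CPM. None of 4 epidermis genes was called (Krt10 −0.12, SE 0.22, Sbsn −0.23, SE 0.26). The call of Col2a1 was lost without SH Sham 1, SH Sham 2, EE Sham 1 or EE Sham 2.

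**Figure D3:**
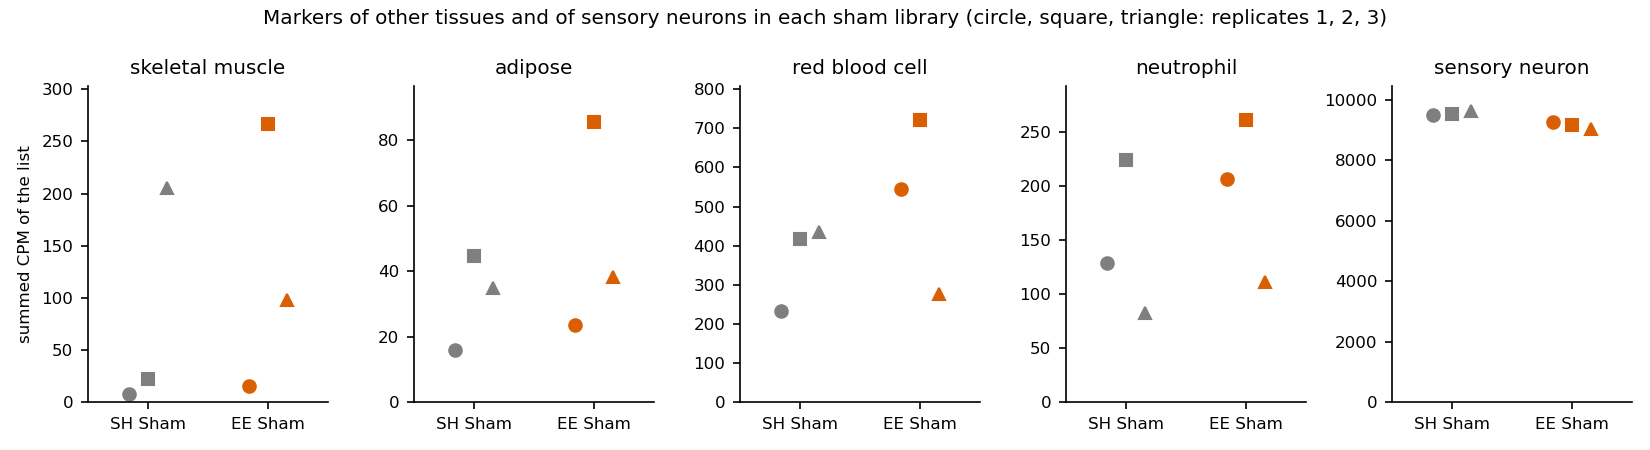
Summed CPM (vertical axes, from 0) of 5 marker lists in each sham library, by group, with circles, squares and triangles for replicates 1, 2 and 3. Skeletal muscle, adipose, red blood cell and neutrophil sums overlap between SH Sham and EE Sham and are highest in EE Sham 2, while the sensory neuron sum lies between 9023 and 9252 CPM in EE Sham, below the 9508 to 9624 CPM of SH Sham.

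The classes of sensory neurons differed little, and their calls stand beside 1.40% of all genes higher and 1.58% lower. Of 12 general sensory neuron genes, 2 were lower and 0 higher, and the median log2 fold change was −0.0543. Tlx3, a homeobox factor of nociceptor development, stood at 39.2, 37.9 and 40.7 CPM in SH Sham 1 to 3 and 33.3, 31.7 and 35.2 CPM in EE Sham 1 to 3 (log2 fold change −0.23, SE 0.07). The splicing factor Rbfox3, known as the neuronal marker NeuN, stood at 172, 165 and 173 CPM in SH Sham 1 to 3 and 162, 150.3 and 149 CPM in EE Sham 1 to 3 (log2 fold change −0.14, SE 0.07). Neither overlapped between groups. The call of Rbfox3 was lost without SH Sham 1, SH Sham 2, SH Sham 3, EE Sham 2 or EE Sham 3. None of the 7 proprioceptor, 7 low-threshold mechanoreceptor, 8 peptidergic, 14 non-peptidergic and itch, or 6 C-fibre low-threshold mechanoreceptor genes was called, with medians of −0.0105, −0.0646, −0.0177, 0.0664 and 0.0531. The values of the peptide genes Calca (0.01, SE 0.07) and Tac1 (−0.05, SE 0.07), of Pvalb of proprioceptors (0.06, SE 0.08) and Etv1 (0.03, SE 0.10), of the neurotrophin receptor Ntrk2 (0.01, SE 0.07) and Maf (−0.10, SE 0.08), of Plxnc1 (0.05) and the sodium channel Scn11a (0.06), and of Gfra2 (−0.04) and Runx1 (0.05) all lay within 0.11 of 0. Nor was any of 13 sodium channel genes (Scn10a 0.03, Scn4b −0.04), 15 calcium channel genes (Cacna2d1 0.14, Cacnb3 −0.01) or 20 genes of synaptic vesicle release (Snap25 −0.02, Cplx1 −0.04) called. Their medians were 0.00665, 0.0610 and −0.0142.

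Genes of activity and growth were divided, and their calls stand beside 1.40% of all genes higher and 1.58% lower. Of 20 immediate early genes tested, Klf4 was higher, at 7.06, 8.67 and 7.44 CPM in SH Sham 1 to 3 and 8.71, 13.95 and 9.302 CPM in EE Sham 1 to 3 (log2 fold change 0.48, SE 0.17), and Egr3 lower, with a median of −0.00752 over the list. Of 19 genes of CREB and CaM kinase signalling, the coactivators Crtc3 (−0.22, SE 0.08) and Crtc1 (−0.22, SE 0.09) were lower and 0 higher. Of 16 neurotrophic factors and receptors tested, 2 were lower and 0 higher, among them Gfra3, the receptor of artemin (−0.18, SE 0.08). Of 15 regeneration-associated genes tested, 2 were higher and 0 lower. The injury-induced factor Atf3 stood at 110.2, 139 and 110.2 CPM in SH Sham 1 to 3 and 135, 138 and 169 CPM in EE Sham 1 to 3, with SH Sham 2 above EE Sham 1 and 2 (log2 fold change 0.30, SE 0.10). The adhesion protein Flrt3 stood at 41.7, 42.8 and 37.2 CPM in SH Sham 1 to 3 and 52.6, 41.7 and 55.2 CPM in EE Sham 1 to 3 (log2 fold change 0.30, SE 0.10). With paired replicates 4 regeneration-associated genes were called, against 5.22% of all genes. The NADPH oxidase list, which includes the complex that the study followed after EE and SNA together, had 0 of 10 genes called (Rac1 0.04, SE 0.07), and a median of 0.155. The call of Klf4 was lost without SH Sham 1 or EE Sham 2, that of Crtc3 without SH Sham 2 or EE Sham 3 and that of Crtc1 without SH Sham 3, EE Sham 2 or EE Sham 3. The call of Gfra3 was lost without SH Sham 2, SH Sham 3, EE Sham 2 or EE Sham 3, that of Atf3 without SH Sham 1, SH Sham 3 or EE Sham 3 and that of Flrt3 without SH Sham 3 or EE Sham 3.

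Supporting cells and connective tissue gave few calls, which stand beside 1.40% of all genes higher and 1.58% lower. None of 12 genes of myelinating Schwann cells (Pmp22 −0.02, SE 0.09), 7 of satellite glia (Apoe −0.16, SE 0.08, Glul 0.08, SE 0.08) or 8 of pericytes and smooth muscle (Rgs5 0.10, SE 0.07, Tagln 0.21, SE 0.23) passed the test. Of 3 central glia genes tested, the glutamate transporter Slc1a2 was lower at 7.47, 7.08 and 6.77 CPM in SH Sham 1 to 3 and 6.11, 5.596 and 5.304 CPM in EE Sham 1 to 3 (log2 fold change −0.33, SE 0.14). Of 8 endothelial genes, the tight junction protein Cldn5 was lower at 11.7, 13.4 and 11.7 CPM in SH Sham 1 to 3 and 5.75, 10.9 and 8.73 CPM in EE Sham 1 to 3 without overlap (log2 fold change −0.52, SE 0.17). Of 8 fibroblast genes, the fibrillar collagen Col3a1 was lower (−0.25, SE 0.11), and of 38 collagen genes tested Col3a1 and Col14a1 (−0.32, SE 0.11) were lower and Col2a1 higher, with a median of −0.123 and 13 positive values. With paired replicates 5 fibroblast and 7 collagen genes were lower, while 392 of all 16238 genes were lower there. The call of Slc1a2 was lost without SH Sham 1, SH Sham 2, EE Sham 2 or EE Sham 3, that of Col3a1 without SH Sham 2, SH Sham 3, EE Sham 1 or EE Sham 3 and that of Col14a1 without SH Sham 2.

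The remaining lists described immunity, stress, division and energy use, and their calls stand beside 1.40% of all genes higher and 1.58% lower. Of 18 type I interferon genes (Stat2 0.13, SE 0.07, Oasl2 −0.01, SE 0.09), 12 of antigen presentation (B2m 0.02, SE 0.09, H2-D1 −0.01, SE 0.11) and 16 heat shock genes (Hspa8 0.02, SE 0.07, Hsp90ab1 −0.04, SE 0.08) none was called. Of 19 cell cycle genes tested, Mki67 and the replication helicase Mcm2 (0.44, SE 0.18) were higher, and of 13 of glycolysis and hypoxia Pdk1, a kinase that restrains pyruvate oxidation (0.17, SE 0.08). Of 76 nuclear genes of oxidative phosphorylation, the ATP synthase subunit Atp5d was lower (−0.22, SE 0.08), and of 77 cytosolic ribosomal protein genes Rps27 was higher (0.19, SE 0.08). All 11 mitochondrially encoded genes tested had positive values, and 0 were called (mt-Co1 0.12, SE 0.08, mt-Co3 0.14, SE 0.09), whereas 7 were with paired replicates. Over all genes 2.80% were called higher with paired replicates. The mitochondrial share of reads was 5.03% to 6.51% in SH Sham and 5.93% to 6.82% in EE Sham. The 4 sex-linked genes tested gave 0 calls (Ddx3y 0.09, SE 0.09, Eif2s3y 0.16, SE 0.10). The call of Mcm2 was lost without SH Sham 2 or EE Sham 3 and that of Pdk1 without SH Sham 2, SH Sham 3, EE Sham 1 or EE Sham 3. The call of Atp5d was lost without SH Sham 2, SH Sham 3, EE Sham 1 or EE Sham 3 and that of Rps27 without SH Sham 3, EE Sham 2 or EE Sham 3.

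Whether uninjured ganglia responded to EE like injured ones was read from EE + SNA against SH SNA. There, 666 genes were called (4.10%), 351 higher (2.16%) and 315 lower (1.94%), the groups did not overlap for 1684 genes (10.4%), and 0 passed the adjusted threshold in edgeR, whereas DESeq2 called 312, 2 of them after adjustment. Of all genes tested, 48 were called in both comparisons, which is 9.94% of the genes called without injury and 7.21% of those called after SNA. Among them 22 were higher in both, 17 lower in both and 9 of opposite sign, and 4 of the 22 belonged to cholesterol synthesis. Of the 483 genes called without injury, 317 (65.6%) had the same sign after SNA, beside 53.3% of all genes. Over the 16238 genes, whose values depend on each other, Pearson's r between both sets of log2 fold changes was 0.058 and Spearman's rho 0.0826.

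Among genes of equal sign that averaged 1 CPM or more in the sham libraries, the 10 with the smallest larger P-value of both comparisons were Acer2, Plin4, Cyr61, Stard4, Insig1, Kcnmb1, Slc1a5, Mvd, Lect1 and Cxcl12. The matricellular protein Cyr61 stood at 4.06, 6.28 and 3.62 CPM in SH Sham 1 to 3 and 4.94, 9.51 and 7.997 CPM in EE Sham 1 to 3 (log2 fold change 0.70, SE 0.24). After SNA it was at 5.26, 5.14 and 5.87 CPM in SH SNA and 8.42, 7.803 and 12.4 CPM in EE + SNA (log2 fold change 0.80, SE 0.18). The glutamine carrier Slc1a5 stood at 32.01, 33.6 and 33.97 CPM in SH Sham 1 to 3 and 37.7, 47.3 and 38.7 CPM in EE Sham 1 to 3 without overlap (log2 fold change 0.32, SE 0.09) and differed by 0.25 after SNA (SE 0.09). Kcnmb1, a subunit of calcium-activated potassium channels (0.20 and 0.39 after SNA), and the chemokine Cxcl12 (0.22 and 0.37) were higher, and Lect1, a matrix protein known as chondromodulin (−0.29 and −0.41), was lower. The call of Cyr61 was lost without SH Sham 3 or EE Sham 2 and that of Kcnmb1 without SH Sham 2 or SH Sham 3. The call of Lect1 was lost without SH Sham 1 or EE Sham 3 and that of Cxcl12 without SH Sham 1, SH Sham 3, EE Sham 1 or EE Sham 3. The test of the difference between both housing effects called 423 of 16238 genes (2.61%), and 0 after adjustment in edgeR's test.

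**Figure D4:**
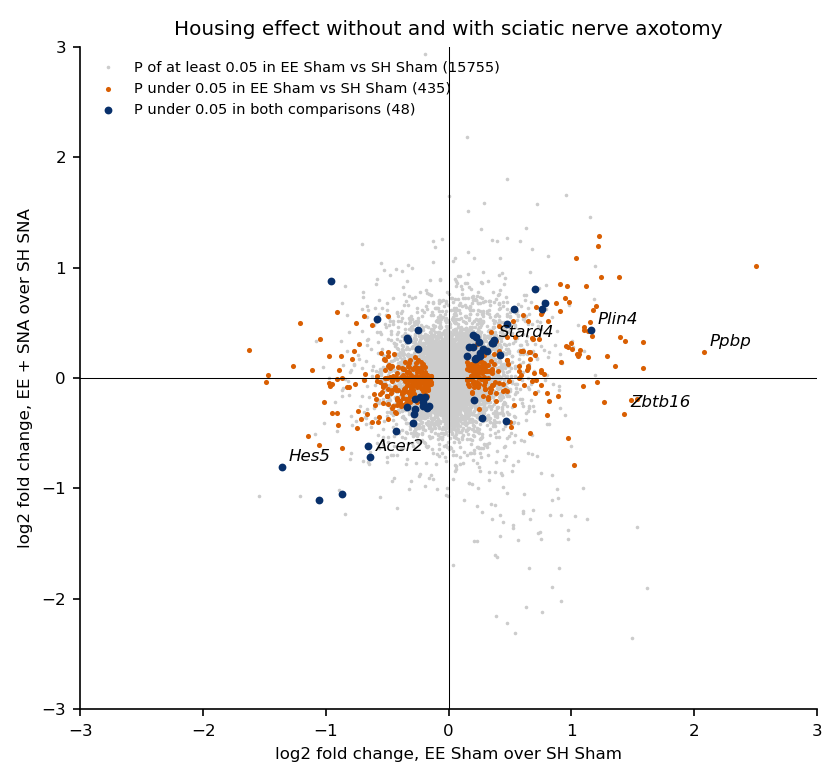
Log2 fold change of EE over SH without injury (horizontal axis) and after SNA (vertical axis) for 16238 genes, with grey points for genes not called without injury, orange for genes called there alone and dark blue for the 48 called in both comparisons. Of the dark points, 39 lie in the quadrants of equal sign, with Acer2 and Hes5 at lower left and Plin4 and Stard4 at upper right, whereas Zbtb16 lies at 1.43 and −0.32.

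EE Sham 3 stood apart by genes of sympathetic neurons, the noradrenaline-making neurons of the autonomic chain. Dbh, the enzyme that makes noradrenaline, had 62 reads in EE Sham 3 and at most 2 in each of the other 5 sham libraries. Slc6a2, the noradrenaline transporter, had 66 reads there and at most 3 elsewhere. Reads on Hand2, a factor that specifies these neurons, numbered 11 in EE Sham 3 and at most 1 elsewhere, and those on Hand1 4 and 0. The 4 genes summed to 143 reads (11.7 CPM) in EE Sham 3 and to 1 to 5 reads in each other sham library, where 3 reads correspond to 0.176 to 0.264 CPM. All 4 were below the filter on low counts and entered no test. The next was Vip, a neuropeptide, with 21 reads in EE Sham 3 and at most 3 in the others. Dbh, Slc6a2 and Vip were the only genes of the whole table with at least 20 reads in 1 sham library and at most 3 in each of the others, a rule set after values were seen, and no other sham library had such a gene.

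Other genes of the list did not divide EE Sham 3 in this way. Tyrosine hydroxylase, Th, which sensory neurons of the C-fibre class also express, stood at 44.7, 39.9 and 55.5 CPM in SH Sham 1 to 3 and 45.6, 45.3 and 51.0 CPM in EE Sham 1 to 3 (log2 fold change 0.02, SE 0.10). The nicotinic receptor genes Chrna3 (0.16, SE 0.18) and Chrnb4 (0.20, SE 0.21), the vesicular transporter Slc18a2 (0.08, SE 0.15), Cyb561 (−0.02, SE 0.09), Gch1 (0.12, SE 0.14) and Phox2a (0.06, SE 0.24) did not pass the test either. Gata3 had 1 read in EE Sham 3 and 0 to 2 in the others. Npy stood at 1.18, 0.867 and 2.55 CPM in SH Sham 1 to 3 and 0.180, 0.767 and 3.84 CPM in EE Sham 1 to 3 (log2 fold change 0.08, SE 0.62), and its log2 fold change was −1.61 without EE Sham 3. Ddc, a decarboxylase of amine synthesis, stood at 1.0003, 1.66 and 0.737 CPM in SH Sham 1 to 3 and 0.629, 1.07 and 3.02 CPM in EE Sham 1 to 3. Gata2 was the 1 of 10 tested members that was called, at 1.59, 1.52 and 1.61 CPM in SH Sham 1 to 3 and 2.07, 2.91 and 2.86 CPM in EE Sham 1 to 3, and it was high in EE Sham 2 as well as in EE Sham 3 (log2 fold change 0.74, SE 0.23). Over all genes 2.97% were called. After SNA, Dbh had 0 to 6 reads and Slc6a2 2 to 9 in each library, and Vip had 23 in EE + SNA 3 and at most 4 in the others.

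**Figure D5:**
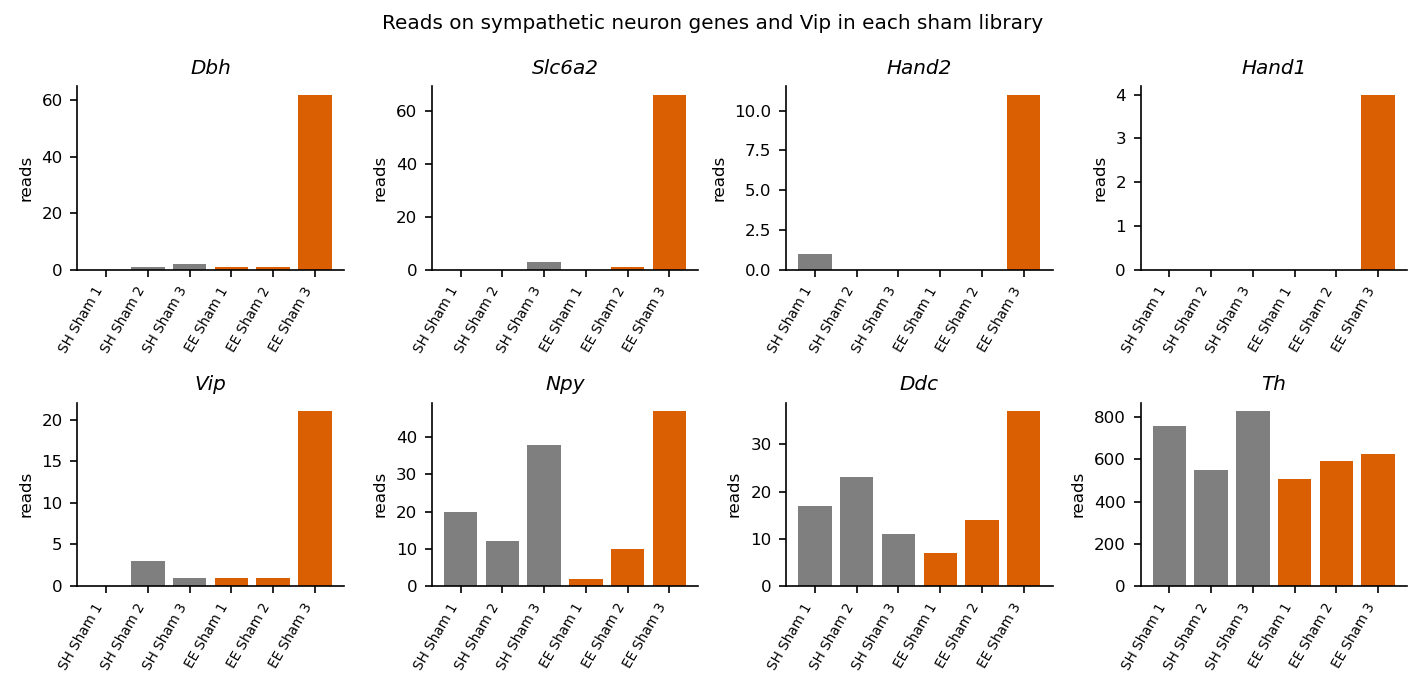
Reads (vertical axes, from 0) on 7 genes of sympathetic neurons and on Vip in each of the 6 sham libraries (horizontal axis), with grey bars for SH Sham and orange bars for EE Sham. Dbh, Slc6a2, Hand2, Hand1 and Vip are high in EE Sham 3 alone, with 62, 66, 11, 4 and 21 reads, whereas Th does not set that library apart.

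Genes of at least 1 CPM whose level in EE Sham 3 most exceeded the highest of the other sham libraries included Npy and Ddc beside Gm14549, Slc26a1, Prr16, Tuba1c, Ccdc151, Casq2, Nxnl2 and Zc3h12d. Of these, Tuba1c, an alpha tubulin, was called, at 15.7, 14.4 and 14.7 CPM in SH Sham 1 to 3 and 15.9, 17.9 and 28.4 CPM in EE Sham 1 to 3 (log2 fold change 0.47, SE 0.17). The call of Tuba1c was lost without EE Sham 3. The calcium-binding protein Casq2 stood at 2.88, 2.24 and 2.14 CPM in SH Sham 1 to 3 and 0.898, 1.92 and 4.41 CPM in EE Sham 1 to 3. Without EE Sham 3, 368 genes were called in place of 483, Zbtb16 had an adjusted P-value of 0.1055 in edgeR and no longer passed that threshold, and Ppbp passed it as the only gene (adjusted P = 0.0212). The part of sympathetic tissue in other values of EE Sham 3 was not tested. Among genes that averaged 1 CPM or more, EE Sham 2 had 8 that lay more than 2-fold above every other sham library, and EE Sham 3 and SH Sham 2 had 1 each.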

How the data were processed

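RNA of whole sciatic DRG was sequenced from pools of 2 mice. Per the study's methods and the submitters' processing notes, reads were aligned to mm10 with TopHat2 2.0.12 and Bowtie2 2.2.3 and counted per Ensembl gene name with HTSeq (0.6.0 in the notes). The deposited count table holds raw read counts that the authors made in this way, not normalized, for 44345 gene names. In each sham library 47.0% to 47.6% of its total fell on the line of reads without a gene, which was left out. The FPKM table holds values per length and library total that the authors computed from the same reads, and was used for 1 alternative and for gene identifiers. Whether strand was kept is not given in the sources used here.

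In R 4.3.3, edgeR 4.0.16 fitted the 6 sham libraries with TMM scaling after filterByExpr (10 counts, total of 15 counts) over the 4 groups of the series, and tested 16238 genes two-sided with glmQLFTest. EE + SNA against SH SNA was fitted likewise, and whether the effect of housing depended on surgery was tested over all 12 libraries. Lists were described by counts and medians and not tested. The members and lists were chosen with earlier results of these data known. Named are genes past the adjusted threshold, the 10 higher and 10 lower with the largest change (called, averaging 1 CPM or more, no overlap, no Gm or Rik name), up to 4 called members of a list (otherwise the 2 most abundant), the sympathetic list, 10 genes past adjustment with paired replicates, the 10 shared with SNA, and the 10 highest in EE Sham 3. Stard4 is among the 10 shared with SNA and was set beside the cholesterol list after its values were seen. A few further members are named beyond this rule after their values were seen. Some genes that the rule selects are not reported here, although counts and medians of lists include them.

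Same-numbered SH Sham and EE Sham replicates had correlations of their deviations from the group means of 0.331, 0.137 and 0.111 on edgeR's log CPM (prior count of 2), and of 0.337, 0.152 and 0.0789 on log2(CPM + 0.5), so that the third pair passed a limit of 0.1 on the former scale only. SH Sham 3 correlated more with EE Sham 2 (0.194) than with EE Sham 3. No label states a pairing. The values with paired replicates are therefore given beside the main ones where they differ, and rest on these correlations alone. The smallest chi-square per degree of freedom between 2 replicates was 3.86, so none was a repeat of another.

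Genes were placed on GRCm38 with GENCODE vM21 (166 of 170 looked up). Older symbols of the table stood in for listed ones (Hbb-b1, Hbb-b2, Emr1, Prrxl1, Gm129 and Sc4mol). The alternatives were the likelihood ratio test, DESeq2 1.42.0, scaling by library size or by DESeq2's size factors, no filter, at least 10 counts in every sample, all 12 samples in one fit, the replicate block, limma 3.58.1 on log2(FPKM + 1) or log2(FPKM + 0.1), and each sample left out. The fits were tested on simulated data. Figures were drawn with Python 3.11.15 and Matplotlib 3.10.9.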

Additional observations from a re-analysis of the deposited data

Results flagged for a closer look

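For 18 named genes the housing effect without injury differed from that after SNA at an unadjusted P-value under 0.05 in edgeR's interaction test, while their adjusted values were 0.458 for Zbtb16 and 0.9999 for the others. Each value below is the log2 fold change of EE over SH after SNA minus that without injury, so that a negative value belongs to a gene whose effect was more positive in uninjured ganglia. Among regulators and hormone-responsive genes the difference was −1.755 for Zbtb16, −1.156 for Atoh8, −0.4431 for Fkbp5, 0.4785 for Ddit4 and 0.6794 for the clock factor Dbp. Among genes of blood and immune cells it was −1.854 for Ppbp and −0.4877 for Mertk. For the injury-induced Atf3 it was −0.3957, for Flrt3 −0.3319 and for the tubulin gene Tuba1c −0.5901.

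Of the others, the endothelial Cldn5 had a difference of 0.6935, Ndufa4l2 one of 0.8884, Atp5d one of 0.326, Col2a1 one of −1.525 and Mcm2 one of −0.5584. The values were 1.509 for BC022960, 0.9027 for AK077163 and −0.9354 for DQ695529. Dbp was the only 1 of the 18 that was called in both comparisons, with opposite signs. Both comparisons drew on the 3 libraries per group alone, and all of these genes were chosen by their values in the sham comparison.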

How the results depend on the processing

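Counts of called genes depended on the setting. For EE Sham against SH Sham, DESeq2 called 207 genes (110 higher, 97 lower) and no filter 887 (457 higher, 430 lower), and after adjustment the likelihood ratio test called 5, no filter 48, and library size alone, all 12 samples in one fit and limma on either FPKM scale 0. The replicate block called 847 (455 higher, 392 lower) and 29 after adjustment. Leaving out 1 library gave 368 to 852 genes, 211 to 395 higher, 156 to 495 lower and 0 to 2 after adjustment. For EE + SNA against SH SNA, DESeq2 called 312 and 2 after adjustment, no filter 1096 and 18, and leaving out 1 library 0 to 7 after adjustment. For the difference between the housing effects, DESeq2 called 186 and 1 after adjustment, the likelihood ratio test 1 after adjustment, no filter 854 and 77, and leaving out 1 library 362 to 771. The cause was not tested. Npy turned from 0.08 to −1.61 without EE Sham 3, with values up to 0.64 over the omissions of single libraries.

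Of 66 named genes called without injury, 24 stayed past the threshold without each single library, 30 under every other alternative and 20 under all. No named gene called without injury changed sign under any alternative. Genes that were not called could, as did Atp2a1 (−0.37) and Acta1 (−0.49) without EE Sham 2 and Ddc (−0.37) and Slc26a1 (−0.23) without EE Sham 3, none of them called there either, and 191 values over all named genes fell short of the threshold and 37 passed it newly. With 3 libraries per group of 11343579 to 17036481 reads, genes under 1 CPM rest on few reads.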

Other observations

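Beside Dbp, 8 genes were called in both housing comparisons with opposite signs (log2 fold change of EE over SH without injury, then after SNA). Gpr151, an orphan receptor, was higher without injury and lower after SNA (0.27 and −0.36), as were Aff1 (0.21 and −0.20) and Gm4723 (0.47 and −0.39). Tspan6, a tetraspanin (−0.33 and 0.35), Rftn1, a protein of lipid rafts (−0.59 and 0.53), Cep85, a centrosomal protein (−0.25 and 0.27), AY036118 (−0.34 and 0.36) and Gm16010 (−0.96 and 0.88) went the other way. They were chosen after their values were seen, and none passed the adjusted threshold of edgeR in either comparison.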
